A study of Anas platyrhynchos with 12 samples.

Results

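The oxidative phosphorylation genes were the 87 gene models, of 16433 in the deposited count table, whose pathway annotation holds the KEGG entry for oxidative phosphorylation. They were compared in breast muscle of F2 ducks (Anas platyrhynchos), with 6 samples from ducks whose breast muscle ratio was high (HB) and 6 from ducks whose ratio was low (LB). Both groups were sampled 42 days after birth, were raised alike with free access to feed and water, and carry no stated treatment or engineered allele. The labels state neither the founder lines of the cross nor the sex of the ducks. Nothing in the labels says in so many words that the 6 samples of a group came from 6 separate birds, so the p-values below measure the spread between these samples. The libraries are named HB-1 to HB-6 and LB-1 to LB-6 after the table's columns, and the numbers do not pair an HB library with an LB library.

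Oxidative phosphorylation makes most of the ATP of a resting cell. Complexes I and II pass electrons from NADH and succinate to ubiquinone, complex III hands them to cytochrome c, and complex IV gives them to oxygen, while complexes I, III and IV pump protons across the inner mitochondrial membrane. Complex V, the ATP synthase, lets the protons back and makes ATP. Most subunits are encoded in the nucleus, and a core set for complexes I, III, IV and V is encoded in the mitochondrial genome, so the chain draws on transcripts of both genomes. Breast muscle of birds is rich in fast fibres, which use glycolysis more than slow fibres do.

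By symbol and description, 32 members belonged to complex I, 2 to complex II, 6 to complex III, 13 to complex IV and 12 to complex V. NDUFA4 was counted with complex IV because its description names that complex. A further 15 encode the V-type ATPase, a proton pump of lysosomes and other vesicles that the pathway map includes, and 7 encode other enzymes: the copper and haem factors COX11, COX15 and COX17, the inorganic pyrophosphatases PPA1 and PPA2, and the proton-potassium pump subunits ATP4B and ATP12A. By symbol, 21 models of 13 symbols were counted as mitochondrially encoded, since several mitochondrial genes had more than 1 model. A RefSeq table placed 13 of these models on the mitochondrial chromosome. The other 8, assembled by the authors, were assigned by symbol only. Their position, and whether any is a nuclear copy, was not tested. Of the 87 models, 82 passed the filter on low counts and were tested, and 5 (ATP12A, ATP4B, ATP6V0A4, ATP6V1G3 and 1 of the models of ATP5F1A) were not.

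The libraries held 24090771 to 42503751 counts. Skeletal muscle markers were high throughout: ACTA1, the skeletal actin, averaged 38930 ± 10210 FPKM in HB muscle and 34860 ± 5183 FPKM in LB muscle (SD, n = 6 each), and the slow myosin MYH7 was at most 0.57 FPKM in any library. FPKM here is the count of a gene model scaled by its length and by the library's total count. HB-4 stood apart, with the slow troponin TNNC1 at 5.56 FPKM against 1186 FPKM or more in every other library. The slow and cardiac fibre markers did not move together there. MYOZ2 and ATP2A2 were highest of the 12 libraries in HB-4, at 92.1 and 12.2 FPKM, and TNNI1, at 2.70 FPKM, was the lowest of HB. The endothelial and adipocyte markers of HB-4 deviated by -1.14 and 1.60 log2 units from their means over libraries. In bulk muscle, fewer cells or fibres of a type and less RNA per cell cannot be told apart.

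The members took 12.3 ± 1.68% of all counts in HB and 12.1 ± 1.12% in LB (SD, n = 6 each), with a range of 10.8% to 15.4% in HB and 10.96% to 13.85% in LB. The models counted as mitochondrially encoded took most of this, 10.2 ± 1.45% in HB and 10.1 ± 0.97% in LB, and the nuclear subunits of complexes I to V took 2.01 ± 0.348% in HB and 1.88 ± 0.199% in LB. The groups overlapped in all 3 shares. The mitochondrial share includes the 8 assembled models assigned by symbol only, whose position was not tested. In HB-1, MSTRG.14694 of MT-CO1 held 1225974 counts and MSTRG.14282 of MT-ND5 held 880425, against 566922 for the annotated MT-CO1 model. HB-1 held the highest share of the whole set and of both its nuclear and its mitochondrial genes, while the lowest share of the nuclear subunits was that of HB-5 at 1.57%, just under LB-6 at 1.60%. Of the members, 62 averaged at least 100 FPKM, a level reached by 540 gene models in all, and 4 members were among the 10 most counted genes.

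No member differed between HB and LB at an adjusted p under 0.05 in edgeR's quasi-likelihood test with Benjamini-Hochberg adjustment over 12577 genes. The background was the same, with 0% of all genes called and a smallest adjusted p of 0.977. At an unadjusted p under 0.05, 4 of 82 members passed, beside 4.6% of all genes tested. ATP6V1B2 and NDUFA2 were higher in HB, beside 2.34% of all genes, and ATP6V0D2 and MT-ATP8 were lower in HB, beside 2.27% of all genes. DESeq2, run as an alternative, called 1 gene in all, 0.00668% of those tested, and 0 members, of which 4 had an unadjusted p under 0.05. No member had groups that did not overlap, against 0.0954% of all genes tested.

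Of the 82 tested members, 62 had a positive log2 difference (HB over LB) and 20 a negative one, and their median was 0.11. This count of positive members was 52 without HB-1, 52 without LB-6 and 50 with limma on log2 FPKM plus 1. Over all genes tested, 49.9% were positive and the median was -0.0003. The 43 tested nuclear subunits of complexes I to V had a median of 0.14, with 38 positive, while the 21 mitochondrially encoded models had a median of 0.005, with 11 positive. Most nuclear subunits of complexes I to V were high or low together from library to library, as described below. Whether the other members vary independently was not tested. The signs of members are therefore not separate observations, and the difference between nuclear and mitochondrial genes was not tested. For the nuclear subunits the standard errors of the log2 difference ran from 0.111 to 0.196, and 42 of 43 of their 95% intervals held 0. These intervals reached from -0.56 at the lowest bound to 0.64 at the highest, and they allow moderate differences in either direction.

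Some marker lists of muscle and of other cell types also held mostly differences of 1 sign. All 7 tested models of the skeletal muscle list were positive, with a median log2 difference of 0.20. Of the endothelial list, 1 of 8 was positive, with a median of -0.25 and summed levels of 267 to 517 FPKM in HB libraries and 401 to 550 FPKM in LB libraries. Of the nerve and Schwann cell list, 1 of 6 was positive, with a median of -0.385 and summed levels of 18.0 to 24.8 FPKM in HB libraries and 19.3 to 50.7 FPKM in LB libraries. In the nerve list 2 of 6 tested models had an unadjusted p under 0.05 in edgeR, beside 4.6% of all genes tested. Over all genes tested, 49.9% were positive. Whether the genes of a list vary independently was not tested, so their signs are not separate observations. In each of these 3 lists 0 were called, beside 0% of all genes, and 0 symbols found were at 0. The part of these cell types in the values of the members was not tested.

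**Figure D1:**
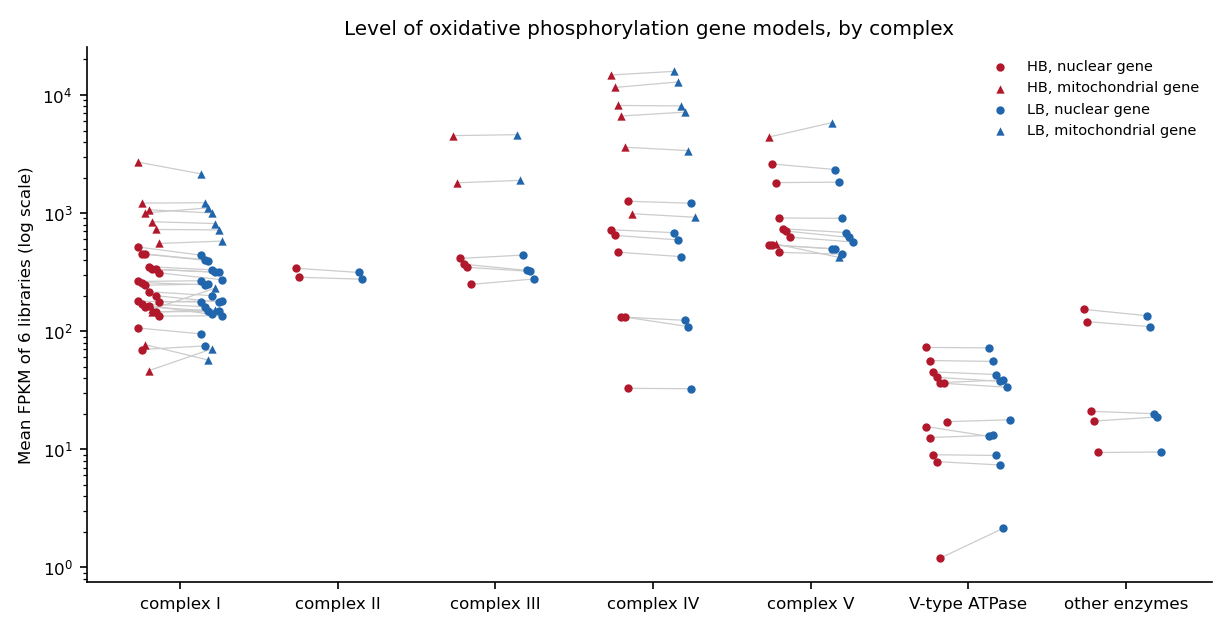
Mean FPKM of 6 HB libraries (red, left) and 6 LB libraries (blue, right) on a log axis for each member with a mean of at least 1 FPKM and counts in both groups, by complex. Circles are nuclear and triangles mitochondrially encoded gene models, and a grey line joins the 2 means of a model; mitochondrial models of complex IV lie highest, up to 14776 FPKM in HB muscle and 15864 FPKM in LB muscle, and the V-type ATPase lies lowest.

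Complex I takes electrons from NADH and had the most members. Its 21 nuclear subunits had a median log2 difference of 0.12, with 18 positive, and its 11 mitochondrial models a median of 0.02, with 6 positive. Of these annotated nuclear subunits NDUFB4, an accessory subunit, was the most abundant at 516 ± 127 FPKM in HB muscle and 440 ± 42.0 FPKM in LB muscle, and NDUFS4, an accessory subunit of the NADH-oxidising arm, was the least abundant at 69.9 ± 12.2 FPKM in HB muscle and 75.0 ± 3.45 FPKM in LB muscle (SD, n = 6 each). NDUFV1, which binds the flavin that accepts electrons from NADH, averaged 453 ± 88.3 FPKM in HB muscle and 403 ± 41.3 FPKM in LB muscle. NDUFS1, the largest of the iron-sulfur subunits, averaged 312 ± 70.9 FPKM in HB muscle and 272 ± 41.9 FPKM in LB muscle. For both, the SD within HB was larger than the difference between the means.

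NDUFA2, an accessory subunit of complex I, had the smallest p of the nuclear subunits in the pathway annotation. Its level was 121.7 FPKM at the lowest, 163.5 at the median and 191.4 at the highest in HB, against 124.8, 139.7 and 147.5 FPKM in LB muscle. The HB libraries 1 to 5 all lay above every LB library, and HB-6 lay below all of them. The log2 difference was 0.29 ± 0.12 (SE; unadjusted p = 0.0254, edgeR adjusted p = 0.977), with 5 of 6 HB libraries above the LB mean. Without HB-6 it was 0.37, and without HB-1, HB-2 or LB-2 it was 0.25, 0.26 and 0.25, with an unadjusted p of 0.0608, 0.0537 and 0.0583 in edgeR. NDUFA11, which sits in the membrane arm, spread most among the nuclear subunits of complex I when ranked by the SD of log2 FPKM (0.34), with 248 and 246 FPKM in HB-1 and HB-2 but 121 FPKM in HB-4, against 134 to 232 FPKM in LB muscle.

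Complex II is the succinate dehydrogenase shared with the citric acid cycle and is wholly nuclear encoded. SDHB, its iron-sulfur subunit, had 281.9 FPKM at the lowest, 347.9 at the median and 399.6 at the highest in HB, against 286.1, 307.4 and 354.3 FPKM in LB muscle. SDHA, the flavoprotein, had 229.9, 281.9 and 339.4 FPKM in HB muscle, against 220.9, 278.0 and 328.2 FPKM in LB muscle. The groups overlapped for both genes, with log2 differences of 0.16 ± 0.12 for SDHB (SE; unadjusted p = 0.208) and 0.09 ± 0.12 for SDHA (SE; unadjusted p = 0.454) in edgeR's test across all genes. The membrane anchor SDHD, named by symbol and not in the pathway annotation, averaged 313 ± 51.6 FPKM in HB muscle and 299 ± 16.2 FPKM in LB muscle.

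In the pathway annotation, complex III had as many lower as higher members, 3 of 6 each, and a median log2 difference of -0.02. These members include both models of MT-CYB and leave out 4 subunits found by symbol. With those added, 7 of 10 were positive and the median was 0.03. Leaving out 1 library took the median of the annotated members from -0.086 (without HB-1) to 0.035 (without LB-1). UQCRFS1, the Rieske iron-sulfur protein, had 232.7 FPKM at the lowest, 431.0 at the median and 499.2 at the highest in HB, against 290.5, 465.7 and 509.0 FPKM in LB muscle. The lowest HB value was that of HB-5 and the lowest LB value that of LB-6, and the other 10 libraries lay between 405 and 509 FPKM. UQCRQ, a small subunit near the ubiquinone site, had 189.1, 249.9 and 311.1 FPKM in HB muscle, against 185.6, 282.4 and 351.7 FPKM in LB muscle, with a log2 difference of -0.13 ± 0.20 (SE; unadjusted p = 0.511, edgeR). UQCRH, the hinge protein that contacts cytochrome c1, averaged 369 ± 94.4 FPKM in HB muscle and 327 ± 14.0 FPKM in LB muscle. Its HB libraries fell on both sides of LB: HB-1, HB-2 and HB-3 lay above the highest LB library at 345.6 FPKM, and HB-4, HB-5 and HB-6 lay below the lowest at 309.3 FPKM.

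Complex IV holds the muscle's most abundant chain transcripts and several isoform families. All 7 of its tested nuclear subunits had positive log2 differences, from 0.06 to 0.31, beside 49.9% positive of all genes tested. These signs are not separate observations, and the smallest difference, that of COX7A2, changed sign in some alternative settings. The 6 mitochondrial models of complex IV split 3 and 3. NDUFA4 was the most abundant nuclear subunit, at 1258 ± 189 FPKM in HB muscle and 1212 ± 119 FPKM in LB muscle. COX4I1, the ubiquitous isoform of subunit 4, averaged 722 ± 106 FPKM in HB muscle and 682 ± 75.3 FPKM in LB muscle. Both groups overlapped for both genes. COX7A2L, known in mammals for its part in joining complexes III and IV into supercomplexes, had the largest difference among the nuclear subunits of the chain in the pathway annotation. It stood at 90.7 FPKM at the lowest, 124.6 at the median and 188.3 at the highest in HB, against 88.4, 109.2 and 123.4 FPKM in LB muscle. HB-1, HB-3 and HB-2 exceeded every LB library, and the log2 difference was 0.31 ± 0.16 (SE; unadjusted p = 0.0717, edgeR adjusted p = 0.977). Without HB-1 it was 0.18.

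COX6A1 and COX7A2 departed from the order of libraries seen for most nuclear subunits. In mammals these are the isoforms of subunits 6A and 7A that tissues other than heart and skeletal muscle use. COX6A1 had 74.6 FPKM at the lowest, 139.5 at the median and 178.8 at the highest in HB, against 86.4, 118.4 and 176.5 FPKM in LB muscle. COX7A2 was less abundant, with 19.6, 34.3 and 43.1 FPKM in HB muscle, against 27.0, 30.5 and 46.2 FPKM in LB muscle. For both genes HB-4 was the lowest of the 12 libraries and LB-6 the highest of LB. By FPKM, LB-6 was next to HB-1 at the top of the 12 libraries for COX6A1 and highest for COX7A2 (the third with TMM scaling), whereas it was the lowest library for 25 of the 43 nuclear subunits.

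Complex V turns on the catalytic subunit ATP5F1B, the alpha subunit ATP5F1A, the rotor ring of subunit c and the small stator subunits. All 9 tested nuclear subunits had positive log2 differences, from 0.02 to 0.21, with a median of 0.14, beside 49.9% positive of all genes tested. These signs are not separate observations. The smallest difference, that of ATP5F1A (ncbi_101795844), changed sign in some alternative settings. ATP5F1B, the catalytic beta subunit, was the most abundant nuclear transcript of the chain. It had 1731 FPKM at the lowest, 2510 at the median and 3603 at the highest in HB, against 1928, 2281 and 3003 FPKM in LB muscle, and both extremes of the 12 libraries were HB libraries. Its log2 difference was 0.18 ± 0.17 (SE; unadjusted p = 0.306, edgeR). ATP5MC3 and ATP5MC1 encode the same mature subunit c. ATP5MC3 averaged 704 ± 204 FPKM in HB muscle and 622 ± 58.1 FPKM in LB muscle, and ATP5MC1 averaged 540 ± 146 FPKM in HB muscle and 500 ± 41.6 FPKM in LB muscle. The SD of each was more than 3 times as large in HB as in LB.

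The mitochondrial subunits of complex V, MT-ATP8 and MT-ATP6, had log2 differences of opposite sign, neither of them called. MT-ATP8 had 3979 FPKM at the lowest, 4300 at the median and 5381 at the highest in HB, against 4981, 5653 and 6978 FPKM in LB muscle. HB-1 to HB-5 lay below every LB library, and only HB-6 lay inside the LB range. The log2 difference was -0.38 ± 0.12 (SE; unadjusted p = 0.00959, edgeR adjusted p = 0.977), and its sign held in all 24 alternative settings run. MT-ATP6 had 341.3, 460.3 and 833.2 FPKM in HB muscle, against 356.1, 412.2 and 500.9 FPKM in LB muscle, with HB-1 and HB-5 at 833 and 779 FPKM and no other library above 501 FPKM. Its log2 difference was 0.41 ± 0.24 (SE; unadjusted p = 0.105, edgeR). The reading frames of these neighbouring genes overlap in vertebrates, the MT-ATP8 model is 168 bases long, and how the authors assigned reads shared by overlapping models is not given in the sources used here. Together the 2 models took 0.111 ± 0.00959% of counts in HB and 0.127 ± 0.0144% in LB (SD, n = 6 each), and how reads were divided between them was not tested.

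**Figure D2:**
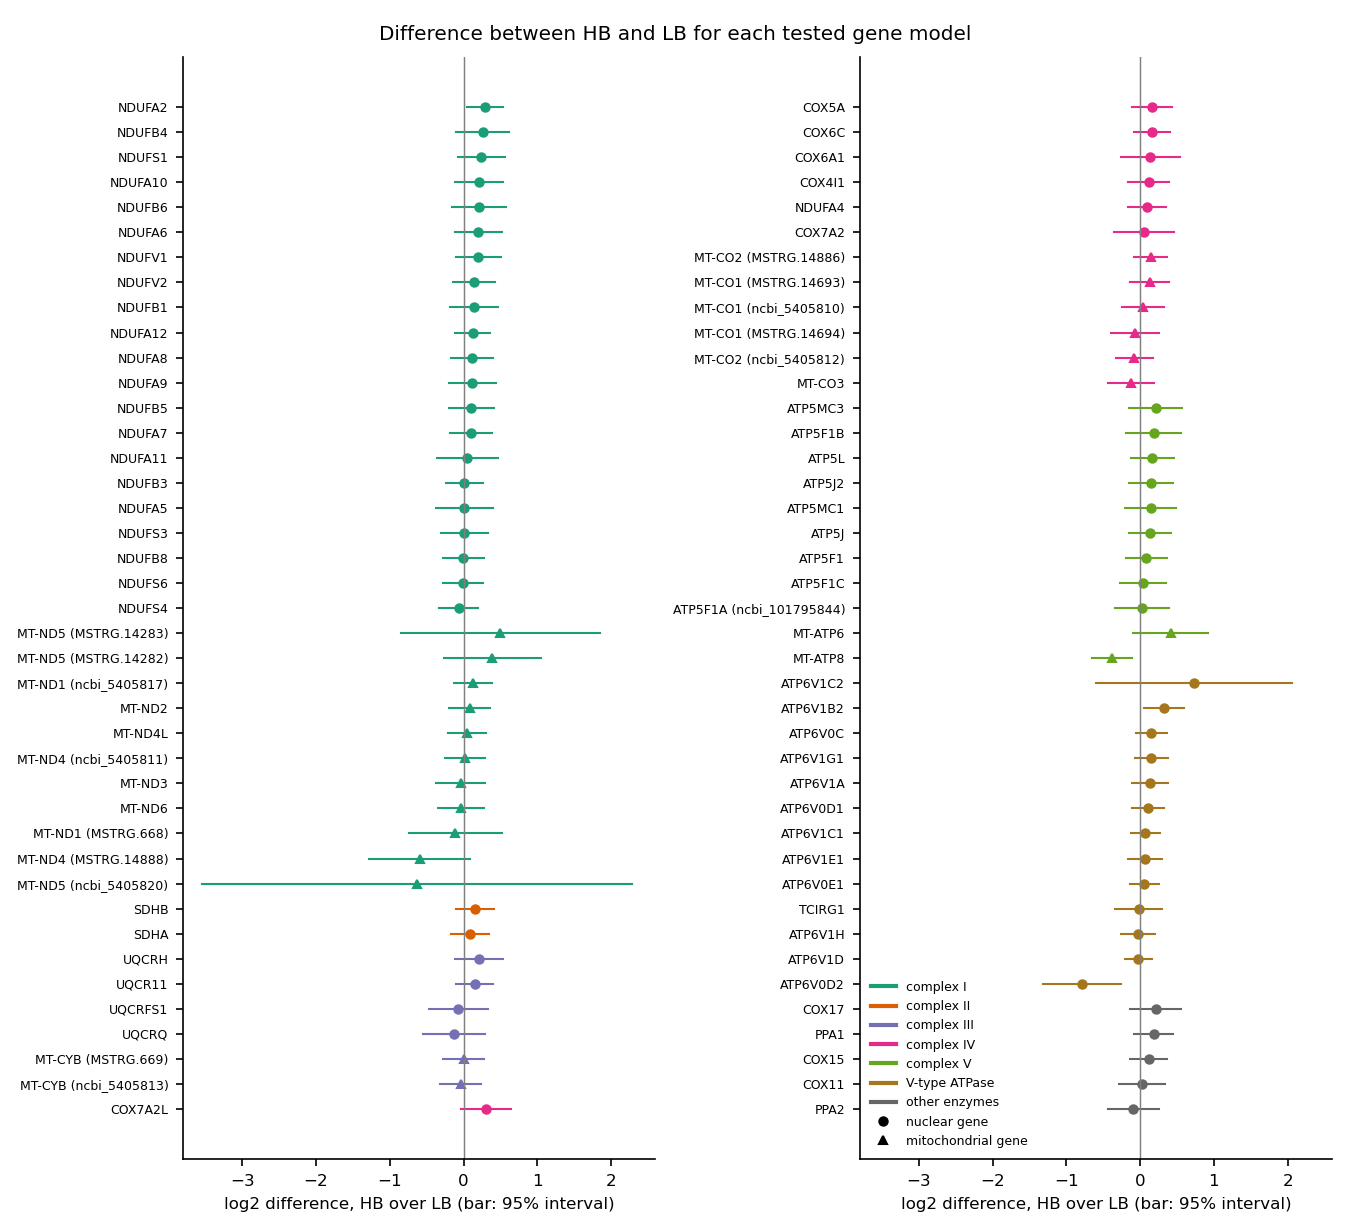
Log2 difference between HB and LB (HB over LB) with its 95% interval for the 82 tested members, ordered by complex and coloured by it, with circles for nuclear and triangles for mitochondrially encoded models. Of the 82 intervals 78 hold 0; those of NDUFA2 and ATP6V1B2 lie above it and those of MT-ATP8 and ATP6V0D2 below it, and the longest bar is that of the MT-ND5 model ncbi_5405820.

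The V-type ATPase was expressed at a lower level than the respiratory chain. Its 13 tested members had a median log2 difference of 0.07, with 9 positive, and the median of their mean levels was 17.1 FPKM in HB muscle and 17.8 FPKM in LB muscle. ATP6V0E1, a small membrane subunit, was the most abundant at 72.8 ± 11.2 FPKM in HB muscle and 72.1 ± 6.74 FPKM in LB muscle. The steadiest members of the pathway were here: ATP6V1C1, a subunit of the stalk, had an SD of log2 FPKM of 0.13 over the 12 libraries, at 8.98 ± 0.527 FPKM in HB muscle and 8.86 ± 1.09 FPKM in LB muscle, and ATP6V0D1, the common isoform of subunit d, had an SD of 0.14. The 12 V-type members with a mean of at least 1 FPKM had a median SD of 0.181, against 0.235 for 44 nuclear subunits of the chain and 0.287 for all 10384 gene models at that level. These spreads are a description and also depend on read depth.

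ATP6V0D2, the other isoform of subunit d, had the smallest p of all members. In mammals it is known from osteoclasts, macrophages and kidney. Its level was 1.05 FPKM at the lowest, 1.22 at the median and 1.32 at the highest in HB, against 1.13, 2.07 and 3.54 FPKM in LB muscle. The 6 HB libraries lay close together, and of the LB libraries only LB-4 lay within their range, while LB-2, LB-5 and LB-3 were highest. The log2 difference was -0.79 ± 0.25 (SE; unadjusted p = 0.00698, edgeR adjusted p = 0.977), with 0 of 6 HB libraries above the LB mean. The median deviation of macrophage markers was 0.759 log2 units in HB-6 and 0.538 in HB-4, the highest of HB. From the LB library highest for ATP6V0D2 to the lowest, it was -0.468 in LB-2, 0.146 in LB-5, 0.311 in LB-3, 0.474 in LB-1, -0.262 in LB-6 and 0.015 in LB-4. The macrophage list, with 13 of 14 models tested and none at 0, summed to 94.03 to 213 FPKM per library of HB and 98.1 to 182 FPKM per library of LB. Of the 5 osteoclast markers listed, 3 were found. CTSK averaged 51.9 ± 16.5 FPKM in HB muscle and 49.4 ± 18.7 FPKM in LB muscle. CALCR, of the same list, was low at 0.72 ± 0.22 FPKM in HB muscle and 0.72 ± 0.32 FPKM in LB muscle. The part of either cell type in the ATP6V0D2 values was not tested.

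ATP6V1B2, the B subunit that shares the nucleotide sites with subunit A, had a difference of the opposite sign. It had 12.7 FPKM at the lowest, 14.8 at the median and 22.0 at the highest in HB, against 11.7, 12.9 and 14.1 FPKM in LB muscle. HB-4 was far above the rest, HB-3, HB-6 and HB-1 also exceeded every LB library, and HB-2 and HB-5 lay inside the LB range. The log2 difference was 0.33 ± 0.13 (SE; unadjusted p = 0.0244, edgeR adjusted p = 0.977), and it was 0.19 without HB-4. Its unadjusted p was 0.067 with limma on log2 FPKM plus 1. ATP6V1C2, an isoform found in few mammalian tissues, was near the limit of detection at 0.30 ± 0.36 FPKM in HB muscle and 0.18 ± 0.09 FPKM in LB muscle, with HB-6 alone at 1.02 FPKM, and its log2 difference of 0.73 turned to -0.18 without HB-6. ATP6V1G3 and ATP6V0A4, which mammals express in kidney, reached at most 0.06 FPKM in any library.

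Among the other enzymes, PPA1, the cytosolic pyrophosphatase, averaged 120 ± 14.7 FPKM in HB muscle and 109 ± 9.40 FPKM in LB muscle. PPA2, its mitochondrial counterpart, was lower, at 17.3 ± 4.6 FPKM in HB muscle and 18.8 ± 1.82 FPKM in LB muscle, with HB-2 and HB-5 as the extremes at 23.8 and 10.1 FPKM. COX17, which carries copper to complex IV, averaged 153 ± 29.3 FPKM in HB muscle and 135 ± 21.4 FPKM in LB muscle. COX15 and COX11, which act in haem a synthesis and copper insertion, averaged 21.0 ± 3.53 and 9.38 ± 1.67 FPKM in HB muscle, against 19.99 ± 2.86 and 9.48 ± 1.64 FPKM in LB muscle. ATP4B and ATP12A, subunits of the gastric and colonic proton pumps in mammals, were at most 0.04 FPKM in any library, and ATP12A had no count in any.

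The largest part of the spread lay between libraries rather than between HB and LB. When the nuclear subunits of complexes I to V were set against their own means over the 12 libraries, the median deviation was 0.34 log2 units in HB-1 and 0.26 in HB-2, but -0.19 in HB-5 and -0.18 in HB-6. In LB it was 0.17 in LB-4 and -0.38 in LB-6, with the other LB libraries between -0.15 and 0.06. All 43 nuclear subunits lay above their own mean in HB-1, and 41 did in HB-2, against 5 in HB-5, 3 in HB-6, 37 in LB-4 and 2 in LB-6. HB-1 was the highest library for 22 of the 43 subunits and LB-6 the lowest for 25. The range over the 6 HB libraries, from -0.19 to 0.34, was wider than the difference between the group means of these medians, 0.06 in HB and -0.06 in LB.

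Leaving out HB-1 brought the median log2 difference of the nuclear subunits to 0.07, and leaving out LB-6 brought it to 0.09, against 0.14 with all libraries. Without HB-5 it was 0.17. The complexes shared this order of libraries: HB-1 had the highest or second highest median of 12 and LB-6 the lowest in nuclear complexes I, III, IV and V, as the map of all members by library shows. Subtracting each library's median over these subunits reduced the SD of log2 CPM for 40 of the 43 and took the median SD to 0.13, against 0.25 before. The median comes from the same subunits, so part of this fall is built in. No other set of genes was compared in this way. The 3 subunits whose SD was not reduced were COX6A1, COX7A2 and NDUFS4.

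The V-type ATPase did not share the pattern. Its median deviation lay between -0.12 and 0.09 in all 12 libraries, with 0.06 in HB-1 and -0.06 in LB-6. The mitochondrially encoded models had the same highest and lowest library as the nuclear subunits: HB-1 was highest at 0.33 and LB-6 lowest at -0.34. They parted from the nuclear subunits in HB-2, at -0.09 against 0.26, and in LB-1, at 0.25 against 0.01. Skeletal muscle markers deviated by -0.02 in HB-1 and -0.25 in LB-6, and most in HB-4 and HB-5, at 0.55 and 0.43, where the nuclear subunits were at 0.03 and -0.19. Slow fibre markers, of which 6 of 11 models were tested, deviated by -0.54 in HB-1, 0.24 in HB-2, 0.58 in HB-5, 1.24 in LB-1, -0.96 in LB-5 and 0.75 in LB-6. They summed to 117 to 2503 FPKM per library of HB and 1287 to 2248 FPKM per library of LB. TNNC1 is on this list, at 5.56 FPKM in HB-4 and at 1186 FPKM or more in every other library. The summed skeletal muscle markers ranged from 58140 to 91610 FPKM in HB libraries and from 52600 to 71540 FPKM in LB libraries. The part of fibre type in these differences between libraries was not tested.

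**Figure D3:**
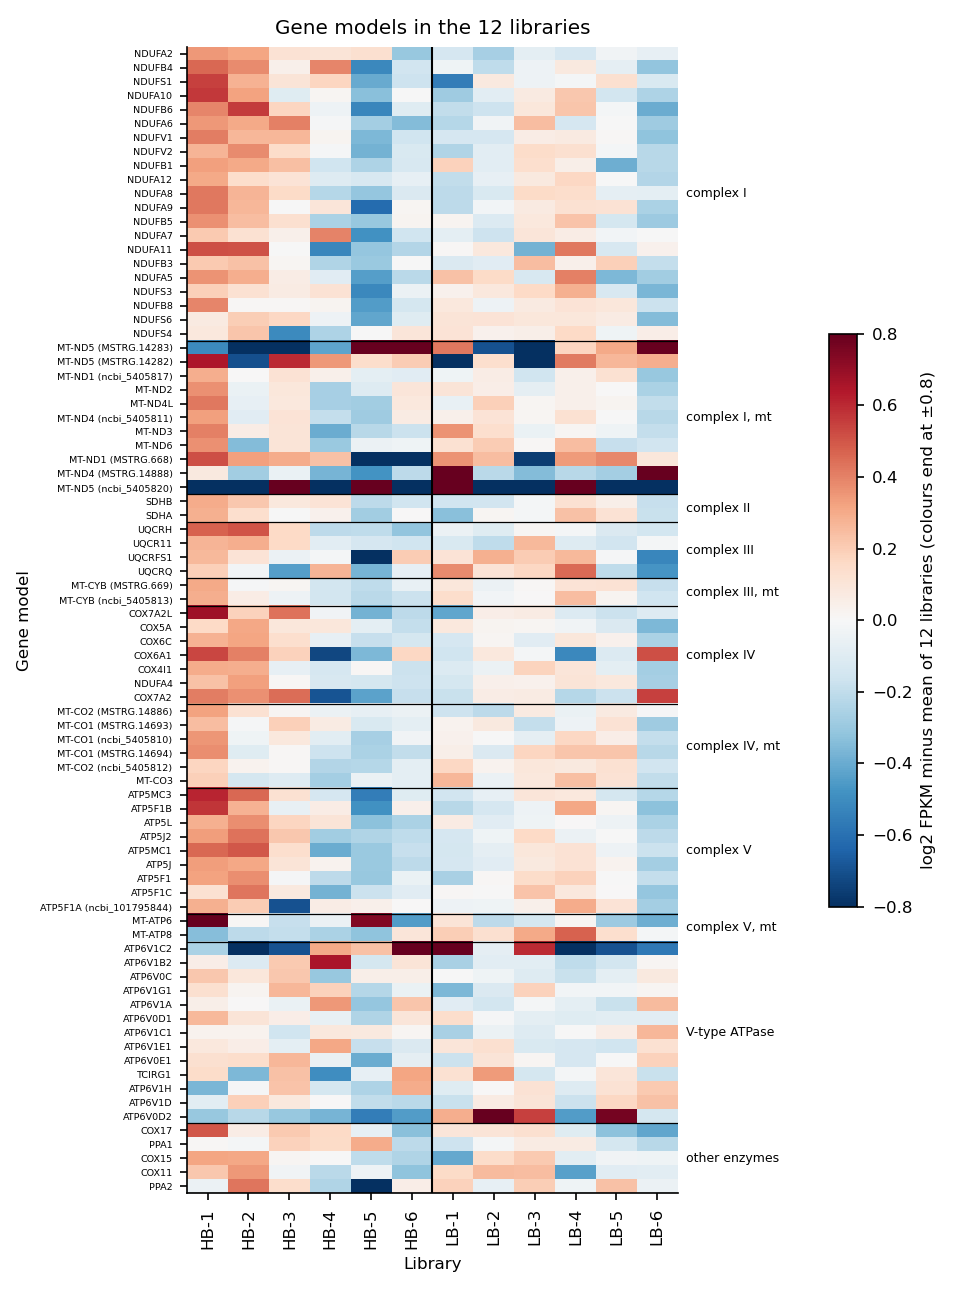
Log2 FPKM of each tested member in each library minus its mean over 12 libraries, with HB libraries left of the black line and LB libraries right of it, members grouped by complex ("mt" marks mitochondrially encoded models), and colours cut at 0.8 in either direction. Columns HB-1 and HB-2 are red and LB-6 blue over most nuclear subunits of complexes I to V, and COX6A1 and COX7A2 run against their columns in HB-4 and LB-6.

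The mitochondrial transcripts were led by cytochrome oxidase. The 3 models of MT-CO1, the catalytic subunit of complex IV, together took between 3.63% and 5.496% of the counts of a library, and averaged 42500 ± 6650 CPM in HB and 44050 ± 4490 CPM in LB (counts scaled by library total; SD, n = 6 each). MT-CO3 averaged 11581 ± 1266 FPKM in HB muscle and 12892 ± 1525 FPKM in LB muscle, and the annotated model of MT-CO2 averaged 6644 ± 731 FPKM in HB muscle and 7158 ± 536 FPKM in LB muscle. MT-CYB, the only mitochondrial subunit of complex III, was counted in a pair of models, 4530 ± 589 and 1804 ± 249 FPKM in HB muscle and 4612 ± 361 and 1893 ± 184 FPKM in LB muscle. None of these differed beyond the spread between libraries (edgeR, smallest adjusted p 0.977). The first MT-CYB model, the assembled MSTRG.669, is 3461 bases long, against 1143 bases for the annotated model. Its counts therefore cannot be read as MT-CYB transcript alone, and the share from other genes was not tested. MT-ND6 lies on the strand opposite to the other mitochondrial protein genes, and the sources used here do not say whether counting used strand, so its 145 ± 27.1 FPKM in HB muscle and 152 ± 18.9 FPKM in LB muscle may include reads of the other strand.

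The most variable mitochondrial members were models of genes counted in more than 1 model. MT-ND5, a proton-pumping subunit of complex I, was divided among 3 models. The annotated model is 1824 bases long, against 7072 bases for MSTRG.14282 and 11305 bases for MSTRG.14283. Counts on models that long cannot be read as MT-ND5 transcript alone, and the share from other mitochondrial genes was not tested. The annotated model, ncbi_5405820, had 485 FPKM in HB-3 and 375 FPKM in HB-5, with the other HB libraries at 9.16 to 22.0 FPKM, against 667 FPKM in LB-1 and 662 FPKM in LB-4, with the other LB libraries at 10.9 to 22.8 FPKM. These 4 libraries stood far above the others, and they came from both groups. The assembled model MSTRG.14282 took 77.5% to 98.4% of the counts on the 3 models. It had 1378 FPKM in HB-2 and 2474 to 3507 FPKM in the remaining HB libraries. In LB muscle it had 953 FPKM in LB-1, 1049 FPKM in LB-3 and 2462 to 2991 FPKM in the remaining libraries. The assembled model MSTRG.14283 was highest in HB-5 and HB-6, at 193 and 162 FPKM, and lowest in HB-2 at 11.7 FPKM, against 28.4 to 101 FPKM in LB muscle.

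The summed counts of all MT-ND5 models still differed between libraries, at 9919 CPM in HB-2 and 20091 to 25205 in the other HB libraries, against 8702 in LB-1, 7762 in LB-3 and 17773 to 22987 in the other LB libraries. The low libraries HB-2, LB-1 and LB-3 were the same for the sum as for the main model. Given the lengths of the assembled models, the sum is not a level of MT-ND5 alone. The summed counts of both MT-ND1 models were 1604 CPM in HB-5, 1635 CPM in HB-6 and 2633 to 3165 CPM in the other HB libraries, against 1699 CPM in LB-3 and 2255 to 2865 CPM in the other LB libraries. Its assembled model, MSTRG.668, had 477 and 503 FPKM in HB-5 and HB-6 and 1167 to 1415 FPKM in the remaining HB libraries, against 585 FPKM in LB-3 and 1053 to 1296 FPKM in the remaining LB libraries. The annotated MT-ND1 model, ncbi_5405817, varied little, from 968 to 1259 FPKM in HB muscle and from 834 to 1119 FPKM in LB muscle. With the models of each symbol summed, the median log2 difference of the mitochondrial genes was -0.01.

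**Figure D4:**
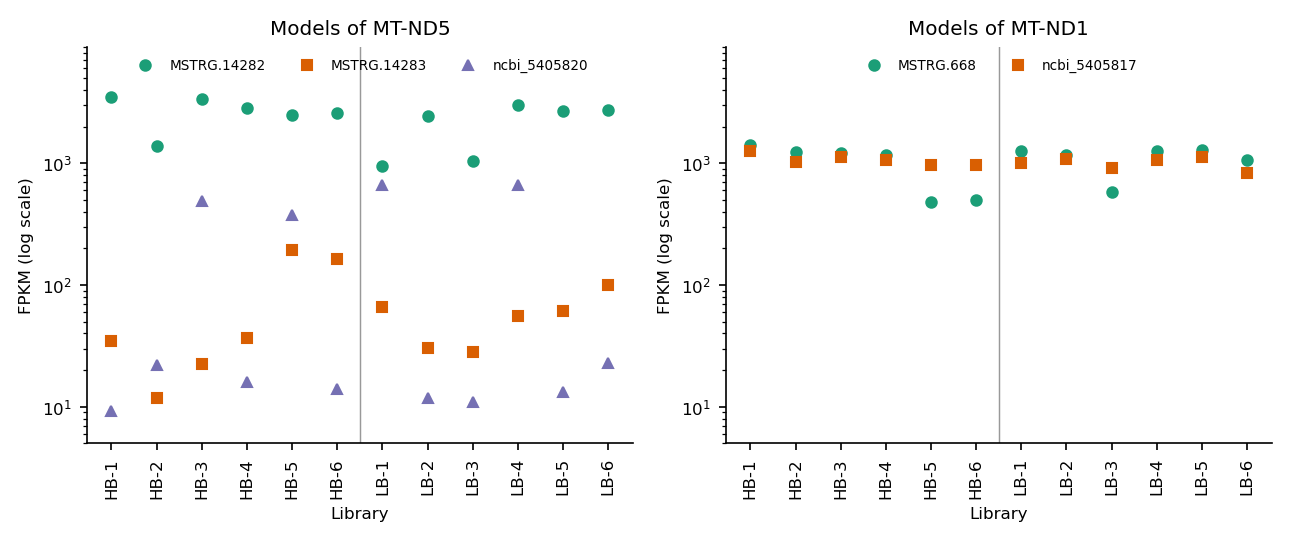
FPKM on a log axis of each model of MT-ND5 (left) and MT-ND1 (right) in the 6 HB libraries, left of the grey line, and the 6 LB libraries, right of it, with 1 marker shape per model. The annotated MT-ND5 model (triangles) stands at 375 FPKM or more in HB-3, HB-5, LB-1 and LB-4 and at 22.8 FPKM or less elsewhere, and the assembled MT-ND1 model (circles) drops in HB-5, HB-6 and LB-3.

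ATP5F1A, the alpha subunit that alternates with beta in the head of the ATP synthase, set HB-3 apart. Its main model, ncbi_101795844, had 1108 FPKM in HB-3 and 1794 to 2186 FPKM in the remaining HB libraries, against 1487 to 2204 FPKM in LB muscle, so HB-3 stood at 0.601 times the median of the other 11 libraries. Another model of the same symbol, ncbi_101801944, had 11543 counts (144 FPKM) in HB-3 and 0 counts in each of the other 11 libraries. A count of 0 allows up to 3 counts, or 0.04 to 0.0659 FPKM in these libraries, a limit that covers counting error only. Whether the models share reads was not tested, and the sum of both was 1252 FPKM in HB-3, still below the other 11. The authors' deposited table gives ncbi_101801944 a log2 fold change of 14.55 with a p-value of 1.0. A group mean of 0 is written there as 0.001 FPKM, so this fold change rests on that value and on HB-3 alone.

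NDUFS4 was also lowest in HB-3, at 50.4 FPKM, or 0.675 times the median of the other 11 libraries. The remaining HB libraries had 60.6 to 83.7 FPKM, against 70.1 to 80.1 FPKM in LB muscle. HB-4, at 60.6 FPKM, also lay below every LB library. The RefSeq table of the duck assembly IASCAAS_PekinDuck_T2T places both NDUFS4 and the main ATP5F1A model on the Z chromosome. These were the only members it placed there, and the part of this location in the HB-3 values was not tested. The model ncbi_101801944 was not matched to that table. A further ATP5F1A model, ncbi_113841028, which that table places on W and which is not in the pathway annotation, was counted in all 12 libraries, at 135 to 221 FPKM in HB muscle and 97.3 to 191 FPKM in LB muscle. Its log2 difference was 0.44 ± 0.19 (SE; unadjusted p = 0.0342, edgeR adjusted p = 0.977).

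**Figure D5:**
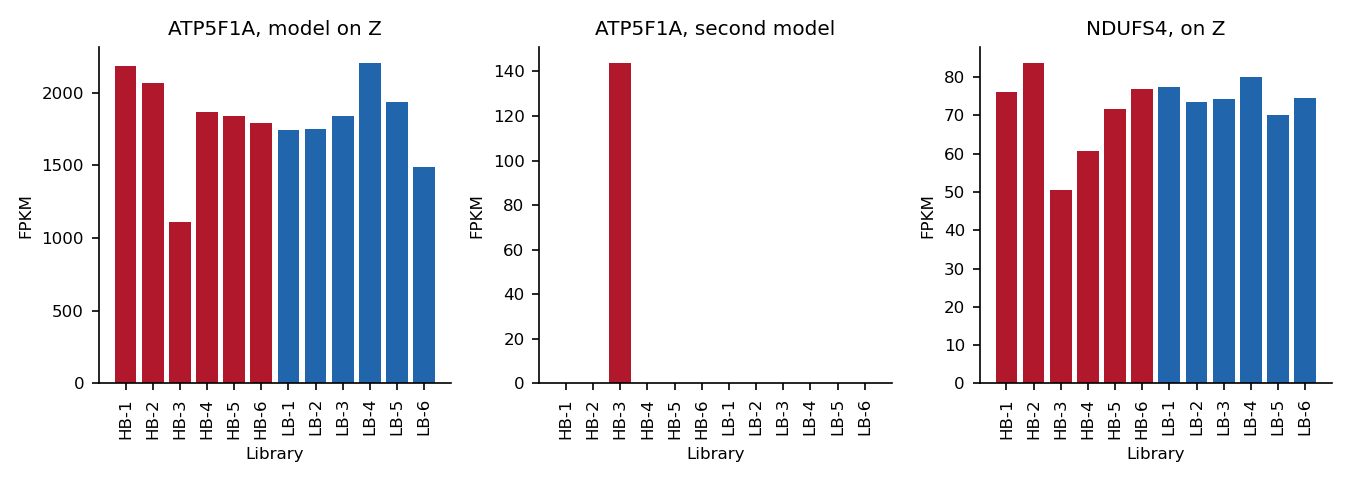
FPKM in the 6 HB libraries (red, left) and the 6 LB libraries (blue, right) of the main ATP5F1A model, of the ATP5F1A model counted in a single library, and of NDUFS4. HB-3 is the lowest bar for ATP5F1A (1108 FPKM) and for NDUFS4 (50.4 FPKM) and the only bar, at 144 FPKM, for the other ATP5F1A model.

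The pathway annotation did not hold every subunit. By symbol, 23 further nuclear subunit models of complexes I to V were found outside it. Their median log2 difference was 0.17, 22 of the 23 were positive, beside 49.9% of all genes tested, and 0 were called. At an unadjusted p under 0.05 in edgeR, 2 of the 23 passed, beside 4.6% of all genes tested. The 23 include both NDUFB9 models and the ATP5F1A model placed on W. Whether these subunits vary independently of the annotated ones was not tested, so their signs are not separate evidence. Singled out after its values were seen, COX6B1 had the smallest p of the 23. This subunit joins the monomers of the complex IV dimer, and it had 54.6 FPKM at the lowest, 67.1 at the median and 102 at the highest in HB, against 37.9, 42.2 and 66.4 FPKM in LB muscle. The groups overlapped, and the log2 difference was 0.57 ± 0.19 (SE; unadjusted p = 0.009998, edgeR adjusted p = 0.977). UQCR10, a small subunit of complex III, averaged 682 ± 200 FPKM in HB muscle and 532 ± 73.9 FPKM in LB muscle. The negative exception was NDUFAB1, the mitochondrial acyl carrier protein, at 376 ± 113 FPKM in HB muscle and 469 ± 130 FPKM in LB muscle.

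Genes that build or supply the chain were likewise not called, beside 0% of all genes tested. Of all genes tested, 49.9% had a positive log2 difference and 4.6% an unadjusted p under 0.05 in edgeR. Whether the genes of a list vary independently was not tested, so their signs are not separate observations. Of the assembly factors, 10 of 15 tested for complex I, 2 of 2 for complex II, 5 of 6 for complex III, 10 of 15 for complex IV and 3 of 4 for complex V had positive log2 differences, and 0 had an unadjusted p under 0.05. TTC19, which acts late in complex III assembly, averaged 29.6 ± 9.68 FPKM in HB muscle and 22.1 ± 5.40 FPKM in LB muscle. Of 15 tested carriers and ubiquinone enzymes, 10 were positive and 1 had an unadjusted p under 0.05 in edgeR. SLC25A4, the adenine nucleotide carrier of heart and muscle, had 938 to 1378 FPKM in HB muscle, against 745 to 1148 FPKM in LB muscle, with a log2 difference of 0.30 ± 0.14 (SE; unadjusted p = 0.0455, edgeR adjusted p = 0.977). COQ8A, a kinase-like protein of ubiquinone synthesis, stood at 421 FPKM in HB-4 and at 52.9 to 95.01 FPKM across HB-1, HB-2, HB-3, HB-5 and HB-6, against 54.8 to 93.8 FPKM in LB muscle, and its log2 difference of 0.91 became 0.10 without HB-4. The model named CYCS, for cytochrome c, was at most 0.2 FPKM in any library and did not enter the comparison of HB and LB. Whether this model holds the cytochrome c transcripts of the muscle was not tested, so its level is not read as that of cytochrome c.

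Of 8 tested genes of the cristae, the folds of the inner membrane, 1 had an unadjusted p under 0.05 in edgeR. This stands beside 4.6% of all genes tested. Of these 8 genes, 7 were positive, beside 49.9% of all genes tested. The exception was APOOL, a subunit of the cristae-organising MICOS complex, at 4.03 ± 0.470 FPKM in HB muscle and 4.93 ± 0.775 FPKM in LB muscle, with a log2 difference of -0.24 ± 0.10 (SE; unadjusted p = 0.0367, edgeR adjusted p = 0.977). Of 14 tested regulators of mitochondrial gene expression, 12 were positive and 0 had an unadjusted p under 0.05, with a median log2 difference of 0.07. PPARGC1A, the coactivator PGC-1alpha, had 3.42 to 8.51 FPKM in HB muscle, against 1.55 to 6.70 FPKM in LB muscle, and a log2 difference of 0.40 ± 0.29 (SE; unadjusted p = 0.193, edgeR). In HB-1, where the nuclear subunits were highest, it stood at 5.99 FPKM, and in LB-6, where they were lowest, at 6.01 FPKM. PPARGC1A itself was highest in HB-4 at 8.51 FPKM and lowest in LB-1 at 1.55 FPKM. The median deviation of the nuclear subunits was 0.03 in HB-4 and 0.01 in LB-1. The part of PPARGC1A in the levels of the nuclear subunits was not tested. TFAM, which packages mitochondrial DNA and acts in its transcription, averaged 25.3 ± 4.55 FPKM in HB muscle and 27.6 ± 4.33 FPKM in LB muscle.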

How the data were processed

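RNA-seq of 12 duck breast muscle samples was analysed from 1 deposited table. Per the submitters' processing notes, fastp 0.18.0, HISAT2, StringTie 1.3.1 and DESeq2 were used; the sources used here give no genome build, annotation or counting options. The table holds the authors' raw read counts per gene model and library, and, per the file headers, the mean FPKM of each group, their log2 fold change, and a p-value with its adjusted value. A further 12 per-library columns could not be tied to samples and were not used.

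Here FPKM per library was computed from counts, library totals and the gene length implied by the deposited group means. HB and LB were compared with edgeR 4.0.16 (R 4.3.3; TMM scaling, filterByExpr, quasi-likelihood test, Benjamini-Hochberg adjustment at 0.05 over 12577 genes), tested on simulated data. SE is the log2 difference divided by the square root of F. Chromosomes come from the RefSeq table, which matched 77 of 87 members. Alternatives used limma 3.58.1, DESeq2 1.42.0, other scalings and filters, and each library left out.

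Genes named: per complex, the 3 most abundant and the 2 with the smallest p; complex II; isoform families; the most and least variable; mitochondrial subunits; per outside list, the 2 with the smallest p. Further names were chosen after their values were seen. Members and lists were chosen with earlier results of these data known.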

Additional observations from a re-analysis of the deposited data

Results flagged for a closer look

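Dixon's test at 95%, which flags about 1 in 20 groups by chance, was applied within each group of 6 libraries. It covered each gene named by the rules above and also the share of counts of each set of members. Cell type markers and the further names chosen after their values were seen were not covered. Of 164 groups, 15 (9.15%) held a library far from the other 5, and all 15 were groups of named genes. The shares of counts, which are part of the 164, held none. Some of the genes were named for their large spread or their small p. ATP6V1G3 and ATP5F1A (ncbi_101801944) had counts in a single library. For these reasons the 9.15% cannot be read against the chance rate. In HB the libraries far from the others were HB-1 for MT-CO1 (MSTRG.14694) at 19668 FPKM and for ATP6V1G3 at 0.06 FPKM, HB-3 for ATP5F1A at 1108 FPKM (ncbi_101795844) and 144 FPKM (ncbi_101801944) and for ATP6V1C1 at 7.97 FPKM, and HB-4 for ATP6V1B2 at 22.0 FPKM, PPARGC1B at 5.36 FPKM and COQ8A at 421 FPKM. HB-5 stood apart for UQCRFS1 at 233 FPKM, and HB-6 for MT-ATP8 at 5381 FPKM and ATP6V1C2 at 1.02 FPKM. In LB they were LB-1 for ATP6V0D1 at 48.3 FPKM, LB-3 for MT-ND1 (MSTRG.668) at 585 FPKM and UQCR11 at 397 FPKM, and LB-6 for COX7A2 at 46.2 FPKM.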

How the results depend on the processing

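No paired analysis was possible because the sample labels give no replicate numbers, and nothing ties the number of an HB library to that of an LB library. edgeR and limma called 0 genes, and DESeq2 called 1; members called stayed at 0 in the 24 alternative settings. The median log2 difference of all members ran from 0.051 (without HB-1) to 0.143 (without LB-4), that of the nuclear subunits from 0.068 (without HB-1) to 0.172 (without HB-5), and that of the mitochondrial models from -0.075 with limma to 0.065 without LB-1. The difference in the share of counts on all members, 0.18 percentage points, was -0.445 without HB-1 and 0.531 without LB-4. Of 63 genes named by the rules above and compared, 48 kept their sign in every setting run. Cell type markers and the further names were not part of this count. The cause of the other changes was not tested. Signs changed with library totals only for MT-ND4 (-0.0105), MT-CYB MSTRG.669 (-0.0257) and ATP5F1A (-0.0122), and for MT-CYB MSTRG.669 with upper quartile scaling (-0.000194). With limma they changed, at offsets of 1 and 0.1, for MT-ND4 (-0.0207 and -0.0207), MT-CYB MSTRG.669 (-0.0315 and -0.0316), ATP5F1A (-0.0339 and -0.0339), COX7A2 (-0.0267 and -0.0288), MT-ND5 MSTRG.14283 (-0.13 and -0.145) and MT-ND4L (-0.00451 and -0.00454). With voom sample weights they changed for MT-CYB ncbi_5405813 (0.00239), ATP5F1A (-0.0352), MT-ND5 MSTRG.14283 (-0.181), MT-ND5 ncbi_5405820 (0.436) and MT-ND3 (0.0505), and MT-ND3 stood at 0.0167 without HB-3 and HB-4. Leaving out 1 library gave ranges of -0.0509 to 0.0598 for the log2 difference of MT-ND4 (ncbi_5405811) and, for the others, -0.242 to 0.031 for MT-ND1 MSTRG.668, -0.063 to 0.056 for MT-CYB MSTRG.669, -0.11 to 0.021 for MT-CYB ncbi_5405813, -0.178 to 0.037 for UQCRFS1, -0.031 to 0.098 for MT-CO1 ncbi_5405810, -0.046 to 0.131 for ATP5F1A, -0.00432 to 0.126 for ATP6V1E1, -0.175 to 1.01 for ATP6V1C2, -0.037 to 0.167 for COX7A2, -0.081 to 0.727 for MT-ND5 MSTRG.14283, -1.4 to 0.092 for MT-ND5 ncbi_5405820, -0.048 to 0.094 for MT-ND4L, -0.128 to 0.026 for MT-ND6 and -0.135 to 0.075 for MT-ND3. Members near 0 FPKM rest on few counts. ATP4B, ATP6V0A4, ATP6V1G3 and ATP12A did not pass the filter on low counts and were not tested. ATP12A had 0 counts in every library, and the part of read depth in the low counts of the others was not tested.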
